A study of Bos taurus with 88 samples.

Results

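The LF calves were naturally suckled beef calves born to Limousin × Friesian cows that had been mated to Aberdeen Angus or Charolais bulls. They were kept with the cow and could suckle at will from birth onward. Samples were chosen by the breed and age given in their labels, which yielded 14 of the 88 whole blood libraries of the series, 7 taken at 0 h, before the first suckling, and 7 taken at 48 h of age from the same calves, matched by ear tag. The same LF calves were sampled again at 72 and 168 h, and these libraries are used below only to follow genes onward. Calves of 2 other kinds were sampled at 0 and 48 h and serve as comparison. They are 7 CL calves, suckled from Charolais × Limousin cows, and 8 Holstein (H) dairy calves. The H calves were taken from their dams and fed colostrum artificially, and they came from a different farm than the beef calves. Breed, farm, separation and feeding can therefore not be told apart in comparisons with H calves. RNA was stabilised in whole blood from the jugular vein, so every library holds the transcripts of all circulating cells together.

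A calf is born with almost no antibody of its own, because the bovine placenta does not pass immunoglobulin to the foetus. Colostrum, the first milk, supplies immunoglobulins, cytokines and maternal leucocytes, and the gut absorbs intact antibody for about the first day of life. Birth itself changes the blood as well. Cortisol is high at delivery, neutrophils make up a large share of the white cells and then decline, and red cell precursors leave the circulation over the following days. The comparison of 48 h with 0 h asked how blood gene expression changed across the period that spans birth, first suckling and the first encounters with microbes. In RNA from mixed blood, fewer cells of a type and less RNA per cell cannot be told apart. The blood cell makeup could not be checked against marker genes, since genes are listed by Ensembl identifier and no table that pairs them with symbols was at hand, so genes are named below by identifier and without a function.

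Reads counted on genes ranged from 10023822 to 28136900 per LF library at 0 h and from 20350871 to 30998999 at 48 h. The 0 h library of LF calf 1 stood apart. It had 27.7% unmapped and 32.8% multimapping reads, and 26.1% of its reads fell on genes, against 62.3 to 67.0% in the other 6 libraries of that age. Gene levels are given as CPM, which are counts scaled by library size and TMM normalization factors. By library size alone, this library of calf 1 had 11953 genes at 1 CPM or more. That was the highest number of the 7, whose lowest was 11639. Many, but not all, of the counts and medians that rest on this calf are given below with and without it. The share of gene reads taken by the 10 most abundant genes of each library was 5.93 ± 0.77% (SD, n = 7) at 0 h and 8.14 ± 1.81% (SD, n = 7) at 48 h. That share was higher at 48 h in 7 of 7 calves (exact sign-flip permutation test, two-sided p = 0.0156, the smallest that 7 calves allow, and 0.109 after adjustment over 7 library measures). Without calf 1 it was 6.04 ± 0.774% at 0 h and 8.43 ± 1.8% at 48 h (SD, n = 6; exact permutation test, adjusted p = 0.219). Leaving out a fixed set, the 10 genes with the highest mean CPM over the 14 LF libraries, changed the number of differentially expressed genes from 1853 to 1851.

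Differentially expressed genes (DEG) were those with a Benjamini-Hochberg adjusted p-value under 0.05 in edgeR's quasi-likelihood test, with the calf as a block, and a change of at least 1.5-fold. Of the 12794 genes tested, 1853 (14.5%) were DEG. More of them were higher at 48 h, 1063 (8.31% of the genes tested), than lower, 790 (6.17%). The median change was 2.03-fold for risen and 1.96-fold for fallen DEG, and the median log2 fold change over all genes tested was −0.02. Without LF calf 1, 1606 genes were DEG (978 risen and 628 fallen). When size was disregarded, 1806 genes were higher and 1814 lower at an adjusted p under 0.05, so rises outnumbered falls with the 1.5-fold threshold and not without it. When LF calf 1 was left out they did so in both cases, with 1446 genes higher and 1311 lower when size was disregarded.

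Rises outnumbered falls by more among the larger changes. At 2-fold or more there were 553 risen and 375 fallen DEG. At 8-fold or more the numbers were 58 and 16, and at 16-fold or more 17 and 6. The numbers without LF calf 1 were 541 and 304 at 2-fold, 56 and 15 at 8-fold, and 14 and 5 at 16-fold. The share of rises also differed with the level of the gene. The genes tested were split into 4 equal sets by mean level. In the lowest set (0.417 to 5.74 CPM) 49.7% of the 733 DEG had risen, in the next 56.7% of 409, in the third 60.2% of 314, and among the most abundant genes (64.8 CPM and above) 70% of 397. DEG were most frequent among the lowest genes, at 22.9%, where the median standard error of the log2 fold change (0.246) was also the largest, against 9.82 to 12.8% in the other sets. With LF calf 1 left out the shares of rises from the lowest to the highest set were 57.3%, 59.7%, 59.1% and 70.4%, so the steady climb over the lower sets was not seen, and DEG made up 19.2% of the lowest set and 8.71 to 11.9% of the others. By a strict cut, 0 genes had at most 3 counts in all 7 libraries of one age and at least 1 CPM in all 7 of the other, in either direction. The cut is in raw counts, and a gene just above it is not counted. ENSBTAG00000011467, described below, had up to 7 counts at 0 h and at least 2.31 CPM in every calf at 48 h.

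**Figure D1:**
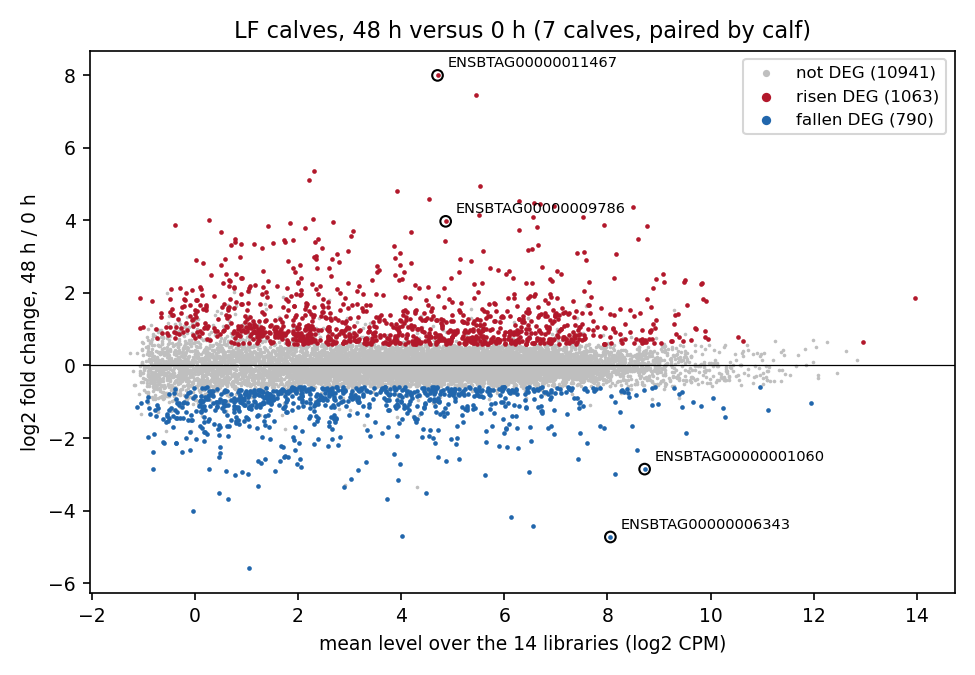
Log2 fold change at 48 h relative to 0 h (y axis) against mean log2 CPM over the 14 LF libraries (x axis), 1 point per gene tested, with the 1063 risen DEG in red, the 790 fallen DEG in blue and other genes in grey. Changes of 16-fold or more comprise 17 rises and 6 falls, and the 4 genes described in the text are circled.

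Taking DEG with the same direction in each of the 7 calves that reached a mean of 5 CPM at the higher age, the largest rise was that of ENSBTAG00000011467. Its level was 0 CPM in the lowest LF library at 0 h, 0.17 CPM in the median and 0.255 CPM in the highest, on 0 to 7 counts. At 48 h the lowest was 2.31 CPM, the median 38.3 CPM and the highest 122 CPM, on 61 to 3691 counts. Every calf was higher at 48 h and the ages did not overlap, but calf 5 lay far below the others, at 2.31 CPM where the next lowest, calf 4, had 16 CPM. In edgeR the log2 fold change was 7.99 with a standard error of 0.474 and an adjusted p of 5e-05. Since the 0 h libraries hold so few counts, the size of this rise is known less well than that it was large. The level fell back afterwards, to a median of 26 CPM at 72 h and 5.33 CPM at 168 h, and at 168 h its lowest calf (2.2 CPM) still lay above the highest 0 h value. Calf 5 reached 41.1 CPM at 72 h, the second highest of the 7.

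ENSBTAG00000009786 rose to a similar level from a higher start. At 0 h its level ran from 1.82 CPM to 9.52 CPM with a median of 2.11 CPM, and at 48 h from 22.4 to 120.6 CPM with a median of 37.1 CPM. Calf 6 was the highest at both ages, and the lowest 48 h value was more than the highest 0 h value. The rise was alike in all calves, with log2 changes between 3.51 and 4.54 and a fitted log2 fold change of 3.97 with a standard error of 0.137 (edgeR's adjusted p was 8.89e-07, the smallest of all genes tested). Its median was 23.0 CPM at 72 h and 4.58 CPM at 168 h, when the calves (3.16 to 8.9 CPM) overlapped the range at 0 h. It ranked 18th among the risen DEG by size, and is named because its change differed from that of the other calves.

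The largest fall under the same conditions was that of ENSBTAG00000006343. The lowest LF calf had 169 CPM at 0 h, the median 380.6 CPM and the highest, calf 6, 1332 CPM. At 48 h the values were 6.93 CPM, 14.3 CPM and 47.3 CPM, so that all calves fell and the ages were far apart. The fit gave −4.73 on the log2 scale with a standard error of 0.487 and an adjusted p of 0.000515 in edgeR. Calf 2 changed least, with a log2 change of −2.45, and calf 6 most, with −6.8. The transcript stayed low, with medians of 12 CPM at 72 h and 9.79 CPM at 168 h. In single calves it came back up in part. Calf 4 had 18.8 CPM at 48 h and 43.9 CPM at 72 h, and calf 3 rose from 12 CPM at 72 h to 34.6 CPM at 168 h.

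ENSBTAG00000001060 was an abundant transcript at birth, with 461.5 to 847.1 CPM (median 714.5 CPM). At 48 h it had 57.3 to 131.6 CPM, with a median of 99.8 CPM, and calf 6 was the lowest at both ages. Its fitted log2 fold change was −2.86 with a standard error of 0.118 (edgeR's adjusted p was 2.5e-06), and single calves lay between −3.22 and −2.39. Its median was 70.7 CPM at 72 h and 72.1 CPM at 168 h. Without LF calf 1 the log2 fold changes of the 4 genes were 7.87, 3.93, −4.66 and −2.88 in the order given here, each still past the threshold.

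**Figure D2:**
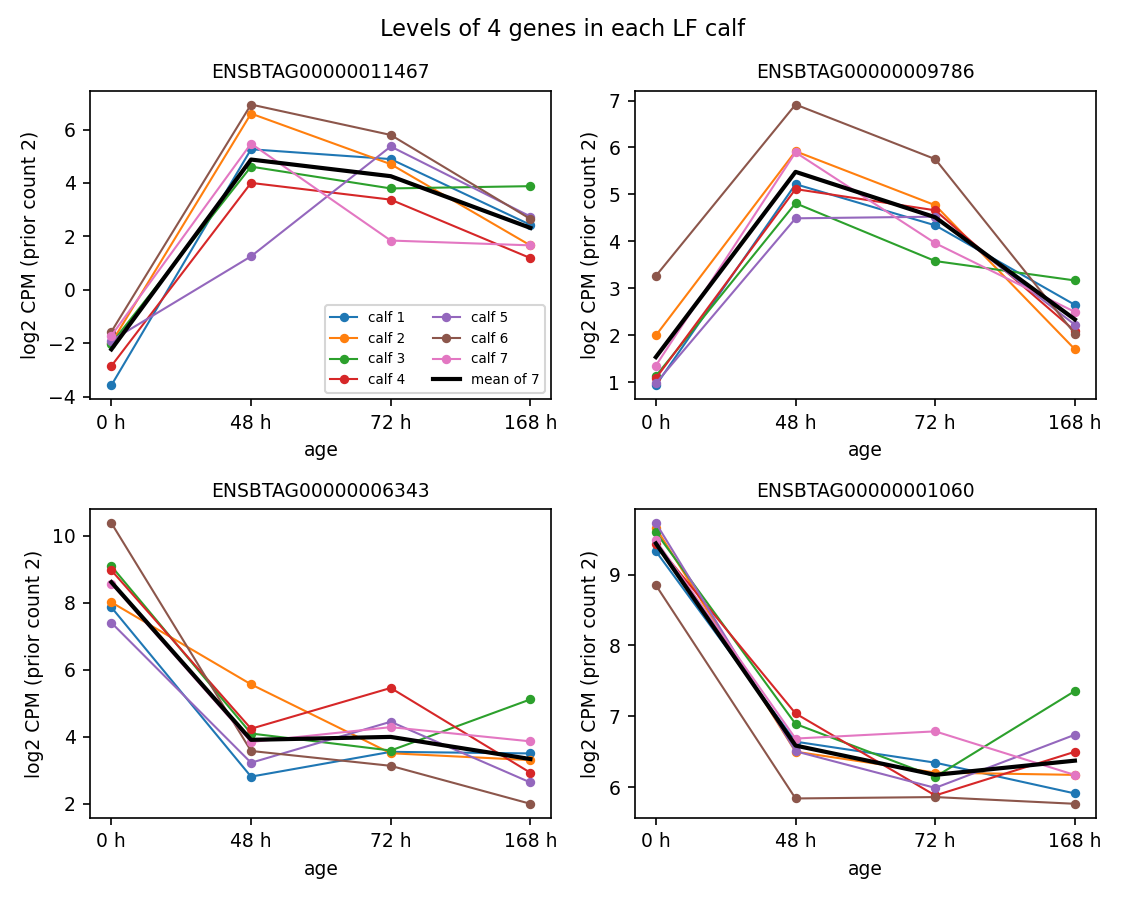
Log2 CPM (prior count 2, y axis) of the 4 genes at 0, 48, 72 and 168 h (x axis, evenly spaced), with 1 coloured line per LF calf and the mean of 7 in black. Both risen genes decline again by 168 h while both fallen genes remain low, and calf 5 reaches its high level of ENSBTAG00000011467 only at 72 h.

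The 10 largest rises chosen by that rule had log2 fold changes of 4.44 to 7.99 and the 10 largest falls −2.92 to −4.73. The calves did not contribute alike to them. Calf 5 showed the smallest change of the 7 in 9 of the 10 rises and in 3 of the 10 falls, while calf 6 had the largest change in 6 of the 10 falls. Over the 58 DEG that rose at least 8-fold, the median log2 change was 1.91 in calf 5, 2.85 in calf 4, and 3.61 to 4.89 in the other 5 calves. Over the 16 that fell at least 8-fold, calf 2 (−2.47) and calf 5 (−2.62) changed least and calf 6 (−5.08) most. When the sets were chosen without LF calf 1 (56 and 15 genes), calf 5 again changed least in the rises, at 1.87, but among the falls it lay at −3.29 and calf 2 alone stood out, at −2.49.

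To measure the change in animals that had no part in choosing the genes, each calf was left out in turn, DEG were called in the other 6, and those genes were read in the calf left out. Between 86.5% (calf 2) and 96.7% (calf 3) of the DEG moved in the same direction in the calf left out, compared with 66.9 to 73.5% of all genes tested. Of the genes that had risen in the others, 87.2 to 96.2% were also higher at 48 h in the calf left out, and of those that had fallen, 79.6 to 97.6% were also lower. For risen genes the median log2 change in the calf left out was 0.913 to 1.081 in 6 of 7 calves, close to the 1.034 to 1.082 fitted to the others, but 0.616 in calf 5, where the fit to the others gave 1.059. The value in the calf left out is a difference of log2 CPM with a prior count of 2, which shrinks it, and the fit is edgeR's log2 fold change. Over all 7 calves these measures gave medians of −0.936 and −0.968 for the fallen DEG. The fit is also favoured because the genes were chosen on it. For fallen genes the median in the calf left out was smaller than in the fit in 6 of 7 calves. It was −0.634 in calf 5 (fit −1.0), −0.719 in calf 2 (fit −0.979), −0.732 in calf 7 (fit −0.96), −0.805 in calf 6 (fit −0.987), −0.886 in calf 4 (fit −1.02) and −0.957 in calf 3 (fit −0.975). Calf 1 was the exception, with −1.16 where the fit to the others gave −0.974.

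**Figure D3:**
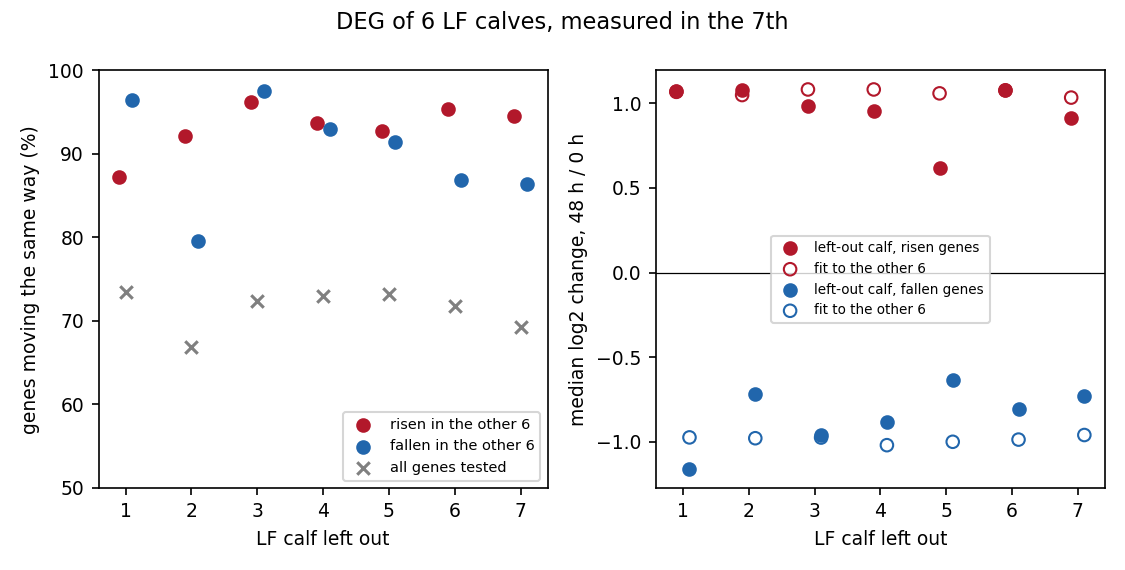
For each LF calf left out (x axis), the left panel gives the percentage of DEG of the other 6 calves that moved the same way in it, in red for risen and blue for fallen genes, with crosses for all genes tested (axis from 50%). The right panel gives the median log2 change in that calf (filled) and in the fit to the other 6 (open), and calf 5 has the smallest change for both sets.

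Calf 5 moved least across the whole transcriptome too. The median absolute log2 change over all genes tested was 0.233 in calf 5 and 0.278 to 0.366 in the other 6 calves. In calf 5, 620 genes were at least 2-fold higher and 394 at least 2-fold lower at 48 h, and in calf 1 the numbers were 929 and 1086. Calf 1 and calf 2 differed in balance, since calf 2 had 1179 genes up and 626 down by 2-fold, and calf 1 was the only calf with more large falls than rises; the 0 h library of calf 1 is the one that stood apart, and its part in this was not tested. Across the genes tested, the log2 changes of any 2 calves had a Pearson's r of 0.354 to 0.697 with a median of 0.55 over the 21 pairs. The genes of a pair share their libraries and are not independent, so this r is given as a description; without calf 1 the median over 15 pairs was 0.546.

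Of the risen DEG, 849 (79.9%) were higher at 48 h in all 7 calves, and of the fallen, 568 (71.9%) were lower in all 7. A 1.5-fold change in every calf was met by 249 risen and 139 fallen DEG. Ranges of the 2 ages were fully separate for fewer genes. Every 48 h value lay above every 0 h value in 273 risen DEG (25.7%), and every 48 h value below every 0 h value in 136 fallen DEG (17.2%), compared with 2.53% and 1.8% of all genes tested. The DEG were called on these same values, so these shares describe them and test nothing. In the other 6 calves, with DEG called anew, the ages were separate for 360 risen (36.8%) and 156 fallen DEG (24.8%), against 3.36% and 2.3% of all genes tested, and 91.5% and 84.1% of the DEG moved the same way in all 6 calves. Without the calf as a block, 943 risen and 578 fallen DEG were called. The spread between LF calves, as the median SD of log2 CPM, was 0.295 before suckling and 0.319 at 48 h, followed by 0.292 at 72 h. It was 0.248 at 168 h, the lowest of the 4 ages.

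The genes that had changed by 48 h were followed in the same calves. At 48 h the risen DEG stood at a median log2 of 0.999 above 0 h, then at 1.106 at 72 h, and by 168 h at 0.524. Of the 1063, 913 (85.9%) were at least 1.5-fold above 0 h at 72 h and 493 (46.4%) at 168 h, and 16 had by then dropped at least 1.5-fold below it. For the fallen DEG the medians at 48 and 72 h were −0.936 and −0.923, followed by −0.706 at the last age. Of the 790, 660 (83.5%) were at least 1.5-fold below 0 h at 72 h and 444 (56.2%) at 168 h, and 31 had reversed by that size. In single calves the median of the risen DEG was 0.741 to 1.254 at 72 h and 0.276 to 0.771 at 168 h, and that of the fallen DEG −1.192 to −0.712 and −0.874 to −0.532. All 3 ages are set against the same 0 h libraries, on which the DEG were chosen, and no test was made of this course. When calf 1 was left out the medians of the risen DEG were 1.047, 1.198 and 0.593 at the 3 ages and those of the fallen DEG −0.935, −0.999 and −0.766, with 50.6% and 59.7% at least 1.5-fold away from 0 h at 168 h.

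**Figure D4:**
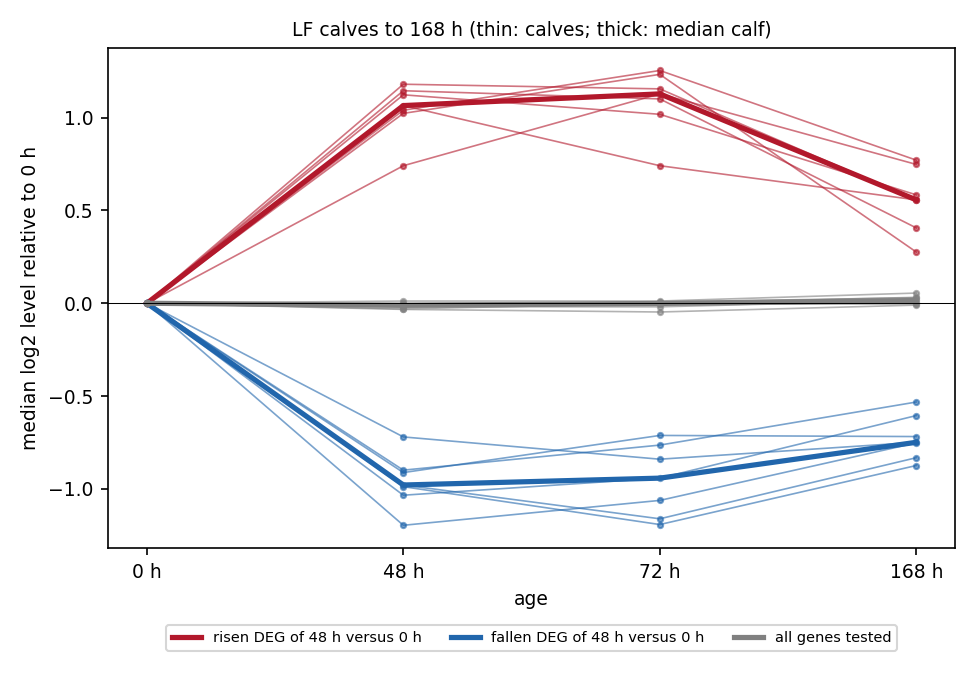
Median log2 level relative to 0 h (y axis) of risen DEG (red), fallen DEG (blue) and all genes tested (grey) at 0, 48, 72 and 168 h (x axis, evenly spaced), with thin lines for the 7 LF calves and thick lines for the median calf. Risen DEG lose more of their change by 168 h than fallen DEG do in the median calf, from 1.065 to 0.557 and from −0.979 to −0.749.

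The change in LF calves was set beside that in CL and H calves over the same ages, by a test of the difference between the changes. One gene passed against CL calves (1 of 13339 tested, 0.0075%) and 2 genes passed against H calves (2 of 13183, 0.0152%), 1 more positive (0.00759%) and 1 more negative (0.00759%) in LF calves. At an unadjusted p under 0.05 there were 3082 genes (23.1% of those tested) against CL calves and 1091 (8.28%) against H calves. Many of the differences from CL calves lay just beyond the threshold: at an adjusted p under 0.1, a limit chosen after seeing the data, 410 genes also differed by at least 1.5-fold, 315 of them more positive in LF calves, and against H calves the count remained 2. DESeq2 with the same block called 510 genes against CL calves, 410 more positive and 100 more negative in LF calves, and 44 against H calves, 38 and 6. How many genes changed differently in LF and CL calves thus depended on the tool, while edgeR with no block called 0 against either (1832 genes at an unadjusted p under 0.05 against CL and 518 against H calves).

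The gene that passed against both was ENSBTAG00000009786. Within LF calves its log2 change was 3.51 at the lowest, 3.92 at the median and 4.54 at the highest. In CL calves the values were 1.24, 1.97 and 3.08, and in H calves 0.67, 1.92 and 2.49, so that no calf of another kind reached the lowest LF calf. The gene was picked by the test on these same changes, so the separation describes it and tests nothing. The share of all genes tested with such a separation is not given here. The LF change exceeded the CL change by 1.91 (standard error 0.257, adjusted p = 0.0197 by edgeR) and the H change by 2.13 (standard error 0.249, adjusted p = 0.00136) on the log2 scale. At birth the LF calves were lower than the others, with differences in mean log2 CPM of −0.25 from CL and −0.6 from H calves, and at 48 h they were higher by 1.64 and 1.53. At 72 h the CL calves had a median of 14.3 CPM and the LF calves 23.0 CPM, and at 168 h 5.98 and 4.58 CPM. Without LF calf 1 the difference from CL calves was 1.88 with an adjusted p of 0.0746 in edgeR, and it also missed the threshold without calf 2 or calf 7, whereas that from H calves passed whichever LF calf was left out.

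ENSBTAG00000001060 differed between LF and H calves. Its log2 change was −3.22 to −2.39 in LF calves, with a median of −2.79. In H calves it was −2.31 to −0.53, with a median of −1.48, again without overlap in a gene picked by the test on these changes. The fall was greater in LF calves by a log2 difference of −1.38 (standard error 0.22, adjusted p = 0.0429 by edgeR). At birth the LF calves stood above the H calves, by 0.82 in mean log2 CPM, and at 48 h below them (LF minus H, −0.58). The medians in H calves were 388.8 CPM at 0 h and 124.5 CPM at 48 h. CL calves were in between, with a median log2 change of −2.18, and their difference from LF calves, −0.66 (standard error 0.195), had an adjusted p of 0.0879. Without LF calf 1 the difference from H calves was −1.41 with an adjusted p of 0.103 in edgeR, and it also missed the threshold without calf 2 (0.147), calf 3 (0.105), calf 6 (0.0799) or calf 7 (0.109).

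ENSBTAG00000011467 rose in the other calves too, by 4.53 on the log2 scale in CL calves (edgeR, adjusted p = 1.97e-05, standard error 0.34) and by 4.84 in H calves (adjusted p = 4.32e-05, standard error 0.461). The medians at 48 h were 38.3 CPM in LF, 3.97 CPM in CL and 11 CPM in H calves, but the lowest LF calf, calf 5, lay within the range of both. LF calf 3 (24.4 CPM) and calf 4 (16 CPM) also lay within the range of H calves (1.21 to 34.3 CPM). The difference between the LF and CL changes was 3.39 (standard error 0.744) with an adjusted p of 0.0777, and without calf 5 it was 3.78 with an adjusted p of 0.03 in edgeR. By 72 h the CL median had risen to 13.1 CPM as the LF median came down to 26 CPM. ENSBTAG00000006343 fell in all 3 kinds of calf, with median log2 changes of −4.73 in LF, −5.37 in CL and −3.16 in H calves, and its differences had adjusted p of 0.659 and 0.474 in edgeR. Its 48 h level was 9.81 to 18.7 CPM in CL and 19.9 to 279.1 CPM in H calves.

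**Figure D5:**
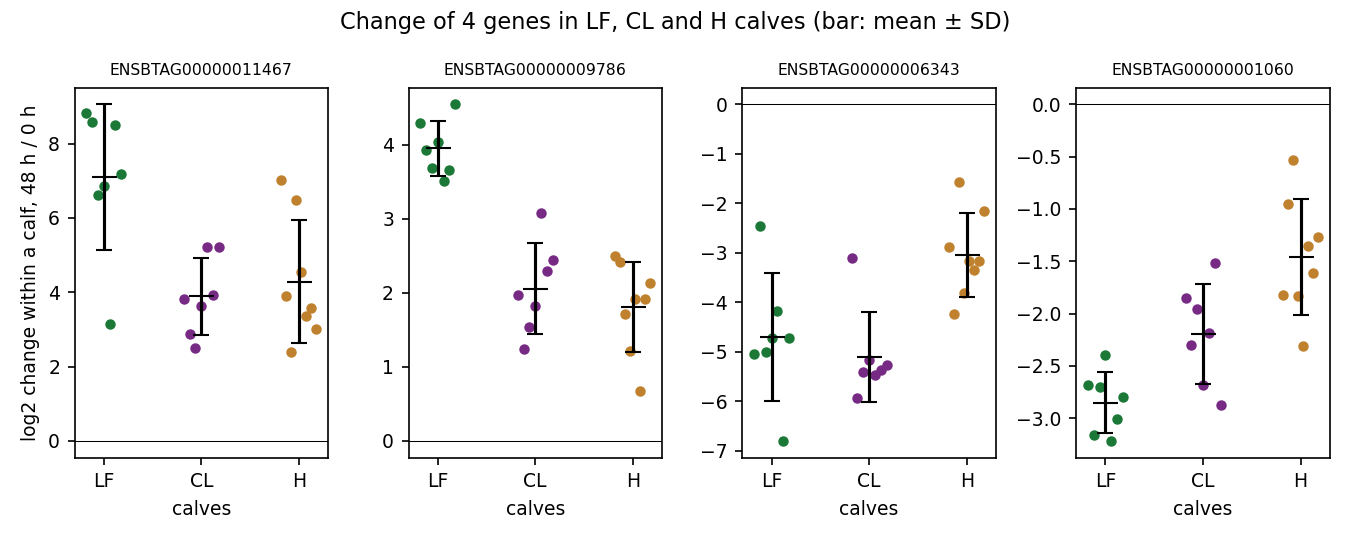
Log2 change from 0 h to 48 h within single calves (y axis) for the 4 genes in 7 LF, 7 CL and 8 H calves, with black bars for mean ± SD. The LF calves lie clear of CL and H calves for ENSBTAG00000009786 and clear of H calves for ENSBTAG00000001060, both picked by the test on these changes. For ENSBTAG00000011467 calf 5 (3.15) lies within the CL range (2.51 to 5.23), and calves 3, 4 and 5 lie within the H range (2.4 to 7.03).

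Across the LF DEG the direction was mostly shared. Of the risen DEG that were tested in CL calves, 94.5% were also higher at 48 h there, and of the fallen, 96% were also lower. In H calves the shares were 97.5% and 98.7%. The share of all genes tested with the same sign in both kinds of calf was not computed, so these shares stand without a background. In CL calves 609 of the rises and 440 of the falls were DEG with the same sign (58.7% and 56.1% of those tested there). Of all genes tested in CL calves, 7.91% were risen DEG and 8.68% fallen DEG. In H calves 559 of the rises and 386 of the falls were DEG with the same sign (54.8% and 51.1%), where 5.93% of all genes tested were risen DEG and 5.24% fallen DEG. Genes chosen in LF calves had larger median log2 changes there, 1.012 for rises against 0.733 in CL calves and 1.008 against 0.684 in H calves, as such a choice favours. The reverse choice, which in the same way favours larger changes in the CL or H calves used for it, gave another picture. The 988 risen CL genes had a median log2 change of 0.977 in CL and 0.917 in LF calves, but the 1088 fallen CL genes had −0.902 in CL and −0.559 in LF calves. For genes chosen in H calves the medians in LF calves were 1.109 for rises, above the 0.965 in H calves themselves, and −0.896 for falls, next to −0.916. No test was made of these medians. Without LF calf 1, 96.1% of the risen and 98.4% of the fallen DEG had the same sign in CL calves (97.5% and 99.2% in H calves), and the genes chosen in CL calves had medians of 0.954 and −0.537 in LF calves.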

How the data were processed

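Per the labels and the study's methods, the authors prepared single-end TruSeq mRNA libraries from whole blood RNA, trimmed reads with cutadapt, aligned them to the UMD3.1 cattle genome with STAR and deposited raw STAR read counts per Ensembl gene; the study used DESeq2. Tool versions were not given in the sources used here. Counts made separately for each strand came to 50.57% and 49.78% of the unstranded total, which was used here. They are nearly equal, so overlapping and antisense genes cannot be separated, and multimapping reads are not counted.

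Groups, calf and age came from the labels. Counts were analysed with edgeR 4.0.16 in R 4.3.3 (TMM, filterByExpr, robust quasi-likelihood fit, calf as a block, 2 groups in the fit or 4 for differences between changes), after testing on simulated data. Alternatives included DESeq2 1.42.0. CPM of single libraries and log2 CPM used TMM factors over all 88 libraries, and log2 CPM a prior count of 2. The floor of 3 counts was 0.0968 to 0.299 CPM by library size alone and covers counting error only. Deviations of same-calf libraries from group means correlated at 0.26 to 0.635 (7 of 7 calves correlated best with themselves). No 2 libraries of a group were alike within sampling noise (42 pairs, smallest chi-square per degree of freedom 33.9).

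Genes named were the largest rise and fall moving the same way in all 7 calves with at least 5 CPM at the higher age, and DEG of the tests between changes; since identifiers could not be paired with symbols, 2 risen and 2 fallen genes are given, the other genes of the rule as counts. The planned gene lists, and an alternative without erythroid genes, could not be applied for the same reason, and no sequences are shown. The samples, rules and tests were chosen with earlier results of these data known. Serum antibody was not analysed here.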

Additional observations from a re-analysis of the deposited data

Results flagged for a closer look

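Values far from the other 6 were sought in 28 groups of 7 LF values and found in 7, where chance gives about 1 in 20. The 0 h library of calf 1 gave 4 of them: 27.7% unmapped, 32.8% multimapping, 13.4% outside genes and 26.1% on genes. At 48 h, calf 4 had 4.36% unmapped reads, against 1.26 to 2.31% in the others. Calf 5 gave the last pair, a log2 change of 3.151 for ENSBTAG00000011467 and a median log2 change of 0.616 for genes that rose in the other calves. Changes that differed between kinds of calf, by edgeR, were those of ENSBTAG00000009786, larger in LF calves by 1.91 against CL and 2.13 against H calves, and of ENSBTAG00000001060, at −1.38 against H calves. The part of library quality in these values was not tested.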

How the results depend on the processing

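The number of LF DEG, 1853, stayed between 1521 and 2115 with DESeq2 (with and without the block), no replicate block, RLE factors, other filters, all 28 LF libraries in the fit, the 10 most abundant genes left out or an adjusted p under 0.1, and between 1588 and 1813 without 1 calf. It was 3620 with no fold threshold and 529 when tested against a 1.5-fold change (344 risen and 185 fallen). Of the tests between changes, that against CL calves (1 gene) gave 0 genes with no replicate block, 510 with DESeq2, 410 at an adjusted p under 0.1 and 0 to 8 without 1 LF calf, 0 without calf 1, 2 or 7 and 8 without calf 5. That against H calves (2 genes) gave 0 with no replicate block, 44 with DESeq2, and 1 to 9 without 1 LF calf, 9 without calf 5; the no-filter count was 3. With no replicate block the differences of ENSBTAG00000009786 were 2.0 and 2.04 with adjusted p of 0.283 and 0.805 in edgeR, and that of ENSBTAG00000001060 from H calves was −1.41 with 0.131; this last also missed the threshold without calf 1, 2, 3, 6 or 7. The causes were not tested. No named gene's change in LF calves lost its call or its direction under any alternative run for it; the filter of 10 counts in every sample left ENSBTAG00000011467 out. With DESeq2 the differences from CL calves of ENSBTAG00000011467 (3.43, adjusted p = 0.0097) and ENSBTAG00000001060 (−0.65, adjusted p = 0.028) also passed. Low genes had the largest standard errors, so smaller changes were less detectable in them. The alternative without erythroid genes and the lists were not run, for want of symbols.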
